A study of Rattus norvegicus with 2 samples.

Results

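Interferon response genes were examined in the cervical lymph nodes of rats, as a list of 32 genes that type I or type II interferon is known to induce. A gene entered when a probe of that name was on the array and was well above background, by the flag of the scanner software, on at least 1 of the arrays. Of the 32 names, 31 had a probe and 28 passed this filter, among 21096 screened genes in all. Both arrays detected all 28 above background, so that none of them has only a bound. Ifit1, Oasl and Cxcl11 had probes that neither array detected well above background (Oasl at intensities of 4.30 in C and 4.06 in RS30), and no probe carried the name Xaf1. The rule uses names and the background flag, and no difference between the arrays.

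The C group consisted of male Sprague-Dawley rats, 10 to 12 weeks of age, without restraint, and the stressed group consisted of rats of the same strain, sex and age that were tied on their backs to a board. The label of the stressed sample gives no time, and 30 min was taken from the study, whose microarray comparison is between the C and RS30 groups. All animals were anesthetized with halothane and killed with pentobarbital before the nodes were taken. RNA of each group was hybridized to 1 array with 60-base probes read in 1 color, so there was no replicate, no test was run, and no spread between rats can be given. How many rats an array stands for, or whether their RNA was pooled, is not given in the sources used here.

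Interferons are cytokines that cells release when they sense viral or other foreign nucleic acid, and IFN-γ is released mainly by NK cells and T cells. Type I interferon acts through the kinases JAK1 and TYK2 on a complex that holds STAT2 and IRF9 and binds the interferon-stimulated response element (ISRE), while IFN-γ acts through JAK1 and JAK2 and on genes with a gamma-activated site (GAS). The induced genes encode sensors of foreign RNA, antiviral effectors, guanylate-binding GTPases, and the chemokines that attract CXCR3-bearing T cells. Lymph nodes keep a low level of this program without infection, and sinus macrophages and plasmacytoid dendritic cells are known sources of type I interferon there.

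The promoters of the genes were searched for short motifs, and no motif was found in all of them. RefSeq (build GRCr8) gave a window from 250 bases before to 50 bases after the gene start for 24 of the 32 genes. The ISRE core, searched on both strands as GAAA and GAAA with any 2 bases between, was present in 15 of the 24 windows (62.5%), compared with 3.92% of all 33469 promoters in the table. The GAS core, searched as TTCNNNGAA, was present in 7 of 24 (29.2%) and in 8.87% of all promoters, and an NF-kB core, searched as GGGA and TTCC with any 2 bases between, was present in 3 of 24 (12.5%) and in 1.3% of all promoters. A match describes the letters and does not show that a factor was bound. Neighboring matches can overlap, as the pairs of ISRE cores in Oas1a and Bst2 do. The windows of the genes that differed by 1.5-fold or more and have an entry in the table are shown with the matched letters in capitals, read 5′ to 3′ along the gene.
Ifit3, GRCr8 chr1:241527076-241527375, forward strand: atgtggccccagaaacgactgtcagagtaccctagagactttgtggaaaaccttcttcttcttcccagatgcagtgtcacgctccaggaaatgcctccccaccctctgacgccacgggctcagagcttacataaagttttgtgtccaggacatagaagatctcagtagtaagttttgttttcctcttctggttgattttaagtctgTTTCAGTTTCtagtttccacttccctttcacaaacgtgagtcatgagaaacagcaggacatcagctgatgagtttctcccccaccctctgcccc
Cxcl10, GRCr8 chr14:15988816-15989115, forward strand: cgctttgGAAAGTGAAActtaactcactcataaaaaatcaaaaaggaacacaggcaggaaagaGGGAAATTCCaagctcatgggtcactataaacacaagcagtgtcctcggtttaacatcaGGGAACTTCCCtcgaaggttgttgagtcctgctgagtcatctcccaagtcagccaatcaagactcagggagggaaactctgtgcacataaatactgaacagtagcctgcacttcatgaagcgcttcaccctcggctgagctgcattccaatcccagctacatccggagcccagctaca
Oas1a, GRCr8 chr12:41330216-41330515, forward strand: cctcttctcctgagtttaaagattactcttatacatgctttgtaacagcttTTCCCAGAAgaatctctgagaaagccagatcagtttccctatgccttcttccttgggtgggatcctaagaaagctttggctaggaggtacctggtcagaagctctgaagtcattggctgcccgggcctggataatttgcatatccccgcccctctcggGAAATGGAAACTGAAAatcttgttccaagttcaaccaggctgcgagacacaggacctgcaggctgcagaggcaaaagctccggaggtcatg
Dtx3l, GRCr8 chr11:78319975-78320274, forward strand: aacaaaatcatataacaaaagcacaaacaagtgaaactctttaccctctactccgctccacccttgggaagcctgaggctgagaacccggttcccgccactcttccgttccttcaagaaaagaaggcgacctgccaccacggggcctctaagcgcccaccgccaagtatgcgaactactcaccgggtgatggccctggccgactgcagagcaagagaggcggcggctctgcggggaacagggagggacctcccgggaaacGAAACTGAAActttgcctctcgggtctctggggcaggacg
Gbp4, GRCr8 chr2:233978236-233978535, forward strand: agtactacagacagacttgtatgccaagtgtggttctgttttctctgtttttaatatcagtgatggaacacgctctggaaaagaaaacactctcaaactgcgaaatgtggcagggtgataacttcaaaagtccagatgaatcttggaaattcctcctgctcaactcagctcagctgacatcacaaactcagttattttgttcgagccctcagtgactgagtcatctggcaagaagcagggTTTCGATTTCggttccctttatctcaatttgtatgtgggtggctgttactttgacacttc
In Ifit3 the ISRE core began 44 bases before the gene start, in Oas1a 2 overlapping cores began 41 and 35 bases before it, and in Gbp4 1 core began 10 bases before it. The core in Dtx3l began 11 bases after the start. Cxcl10 was the 1 gene among these whose window held NF-kB cores, which lay downstream of its ISRE core at 243 bases before the start. Ifit3 and Oas1a, which share these letters, differed in opposite directions between the arrays, as described next. Of the screened genes with a promoter entry, the 14 with an ISRE core had a median log2 difference of -0.11 and the 7 without one had a median of -0.08.

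As a list, the interferon response genes were not higher after restraint. The median log2 difference between the RS30 and C arrays was -0.19 over the 28 genes (1.14-fold lower), with quartiles of -0.42 and 0.13, compared with a median of 0.02 and quartiles of -0.20 and 0.21 over all screened genes. A difference is that of log2 intensities after the 75th percentile of each array was subtracted, and a value below 0 is lower on the RS30 array. Of the 28 genes, 18 (64.3%) were below 0, compared with 47.9% of all screened genes. Only Dtx3l was 2-fold or more higher (3.57% of the 28, with a background of 3.46% of screened genes), and only Gbp4 was 2-fold or more lower (3.57%, with a background of 4.28%). At 1.5-fold, 3 genes were higher, namely Dtx3l, Ifit3 and Cxcl10 (10.7%, background 7.97%), and 3 were lower, namely Gbp4, Oas1a and Usp18 (10.7%, background 8.46%). The other 22 genes differed by less than 1.5-fold. The shares of genes past 2-fold thus lay near those of all genes, and the list differed mainly in the position of its middle.

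**Figure D1:**
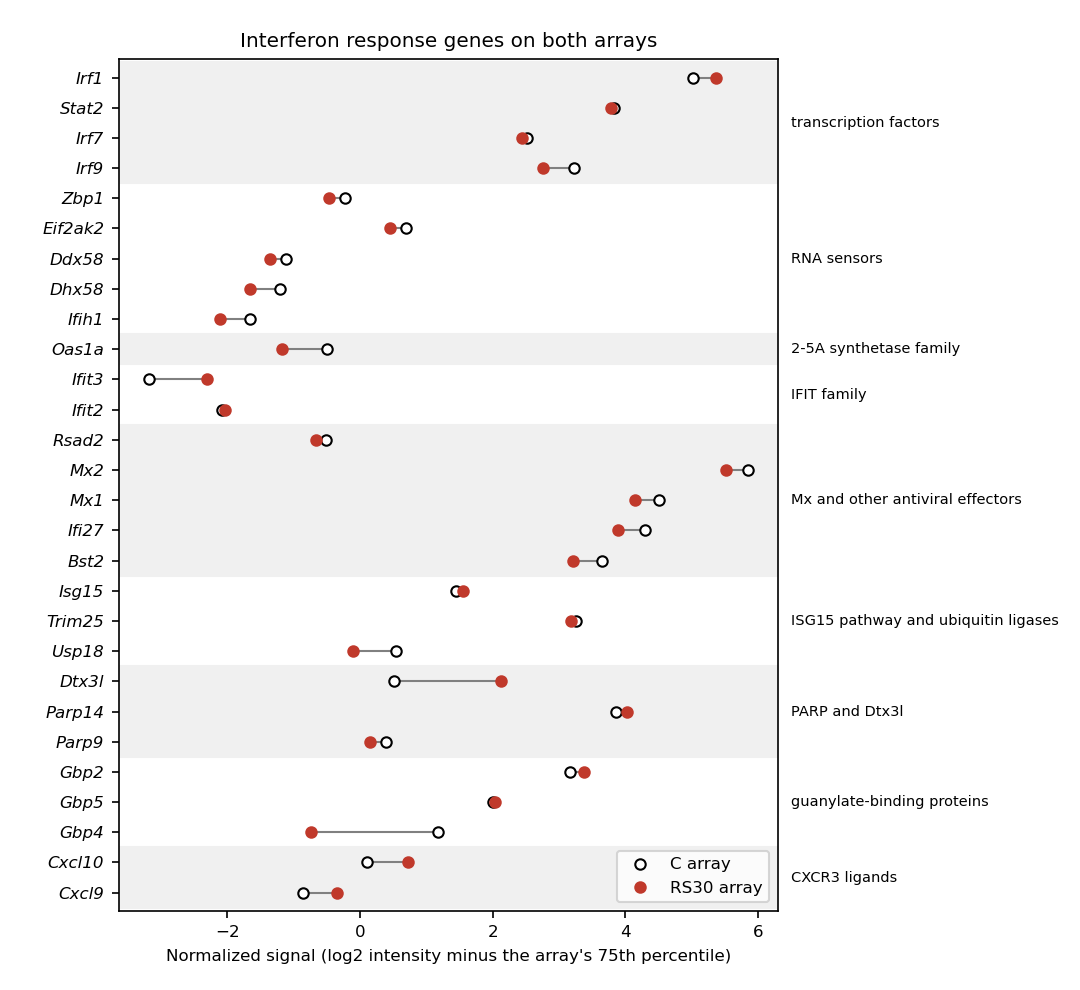
Normalized signal (log2 intensity relative to the 75th percentile of its array, x axis) of the 28 screened interferon response genes in C (open circles) and RS30 (red circles), grouped by role. Most pairs lie close together, while Dtx3l is 3.04-fold higher and Gbp4 3.80-fold lower on the RS30 array; signals of different probes are not comparable with each other.

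The scanner software gives an error for each spot, and the median error of a log2 difference was 0.20 over the 28 genes. It covers the spot measurement alone and not the spread between rats. Beyond the 95% interval of this error (the spot interval), 4 genes were higher (14.3%, background 11%) and 8 were lower (28.6%, background 10.2%), and 16 lay within it. The higher genes were Dtx3l, Ifit3, Cxcl10 and Cxcl9. The lower genes were Gbp4, Oas1a, Usp18, Ifih1, Irf9, Dhx58, Bst2 and Ifi27. With 1 exception the probes of these genes were printed in 1 spot, and Bst2 was printed in 2. All 28 genes were above background on both arrays, compared with 19214 of the 21096 screened genes. Dimmer genes have wider spot errors, so the background shares are not for genes of like signal.

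Among the transcription factors, the subunits of the type I interferon complex and Irf7 were level or lower, and Irf1 was slightly higher. Irf1, an early target of IFN-γ that also responds to NF-kB, went from an intensity of 6072 in C to 7221 in RS30 (log2 difference 0.35, spot error 0.20). Irf9, the DNA-binding subunit of the complex, had 1758 and 1194 (-0.46, spot error 0.20), and its second probe had nearly the same difference, -0.48. Stat2, its partner, had 2662 and 2429 (-0.03). Irf7, the factor that amplifies IFN-α production, had 1073 and 958 (-0.06). Only the difference of Irf9 exceeded its spot interval.

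All 5 sensors of foreign nucleic acid were lower on the RS30 array, by small amounts (47.9% of all screened genes were below 0). The log2 differences ranged from -0.46 for Ifih1, which encodes the RNA sensor MDA5 (intensities of 60.3 in C and 40.9 in RS30), to -0.24 for Zbp1, a sensor of Z-form nucleic acid (161 and 128). Dhx58, which encodes the RIG-I-like protein LGP2, had intensities of 82.1 and 56.0 (-0.45, spot error 0.21). Ddx58, which encodes RIG-I, had 87.2 and 68.5 (-0.25). Eif2ak2, the kinase PKR that halts translation on double-stranded RNA, had 305 and 242 (-0.24), and its second probe gave -0.28. The differences of Ddx58, Eif2ak2 and Zbp1 lay within their spot intervals. Those of Ifih1 and Dhx58 exceeded them, but both signals are dim. With the normexp background correction, which adds an offset to all signals, each of these 2 differences was -0.18. The Ifih1 probe is also of a kind that was more often 2-fold or more lower on the RS30 array than other probes, as described below for Gbp4.

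The antiviral effectors showed the same direction. Mx1 and Mx2, dynamin-like GTPases that block viral replication, had log2 differences of -0.35 and -0.33, from intensities of 4271 to 3125 and of 10834 to 8054. Bst2, the tetherin that holds budding virions, had 2376 and 1637 (-0.44, spot error 0.14), and Ifi27 had 3713 and 2615 (-0.41). Rsad2, which encodes viperin, had 132 and 112 (-0.15). All 5 were thus below 0 (background 47.9%), and only Bst2 and Ifi27 were past their spot intervals. Oas1a, which makes the 2-5A that activates RNase L, was the lowest of the antiviral enzymes at 135 and 78.2 (-0.69, spot error 0.21; 1.61-fold lower), and its second probe, 79.8 and 45.8, gave -0.70. Xaf1, a proapoptotic interferon target, is not named on the array, but 1 probe described as XIAP associated factor and named by a transcript identifier alone had 74.6 and 41.4 (-0.75, spot error 0.22). This probe was found after the other values had been seen, and it is not counted among the 28.

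The ISG15 system, in which a ubiquitin-like protein is joined to other proteins, differed in its remover and not in the modifier. Isg15 itself had 513 and 518 (0.11, spot error 0.20), and Trim25, a ligase of this system that also activates RIG-I, had 1810 and 1597 (-0.08). Usp18, the protease that removes ISG15 and blocks the type I receptor, had 275 and 163 (-0.65, spot error 0.20; 1.57-fold lower). The second probe of Trim25 gave -0.55, from 116 to 74.3, which lay beyond its spot interval while that of the brighter probe did not.

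The IFIT proteins, which bind foreign RNA at its 5′ end, did not share the lower direction. Ifit3 went from 20.8 in C to 35.7 in RS30 (0.87, spot error 0.26; 1.83-fold higher). Ifit2, at 44.7 and 43.2, had a difference of 0.05. Ifit1 was at 2.28 and 2.06, within background. Its probe and those of Ifit2 and Ifit3 lie together on chromosome 1, in the order Ifit2, Ifit3, Ifit1, and no direction was common to them. The Ifit3 signal is dim, and with the normexp background correction, which adds an offset to all signals, its difference was 0.29.

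The chemokines that bind CXCR3 were higher. Cxcl10 had 203 and 291 (0.62, spot error 0.20; 1.54-fold higher), and Cxcl9 had 104 and 138 (0.51, spot error 0.21; 1.42-fold higher). Under the 12 other settings that gave a value, the differences ranged from 0.49 to 0.64 for Cxcl10 and from 0.34 to 0.54 for Cxcl9. Each gene has 1 probe, detected on both arrays and without an alternating run of A and G. The settings on the filter, the bound, the probe mean and such runs therefore repeat the main value by construction. Cxcl11, at 9.53 and 2.01, did not stand well above background in C or RS30, so that no fold is given. The probes of all 3 genes lie within 1 stretch of chromosome 14, from 17252192 to 17288890 as positioned in the array files (build rn4 by their header). Cxcl9 is a target of IFN-γ above all, while Cxcl10 also responds to type I interferon and NF-kB. Ifng itself, at 8.86 and 2.98, was not detected well above background.

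**Figure D2:**
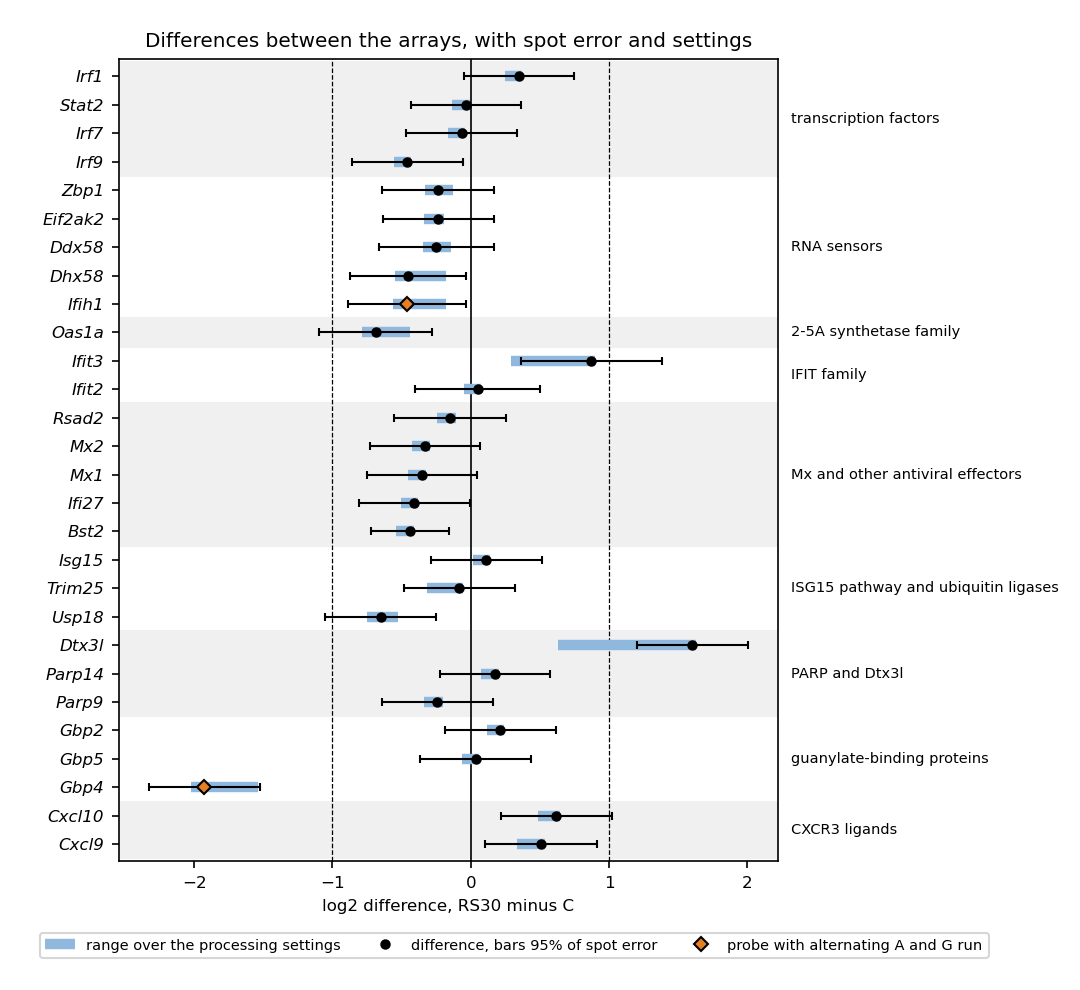
Log2 difference (RS30 minus C, x axis) of the 28 genes by role, with bars for the 95% interval of the spot error, the range over the processing settings as blue bands, and dashed lines at 2-fold. The sensors and the Mx group all lie left of 0, Dtx3l falls under 2-fold when its probes are averaged (0.63), and the band of Gbp4 leaves out the setting that removes its probe (orange diamonds mark probes with an alternating run of A and G).

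Among the guanylate-binding proteins, GTPases that attack intracellular pathogens and are typical of the IFN-γ response, Gbp2 and Gbp5 were level and Gbp4 was much lower. Gbp2 had 1701 and 1843 (0.21, spot error 0.20), and Gbp5 had 758 and 726 (0.04). Gbp4 had 428 and 105, which is -1.93 on the log2 scale (spot error 0.21; 3.80-fold lower), and 2.06% of all screened genes were as low or lower. The Gbp4 value rests on 1 probe of a kind that was more often 2-fold or more lower on the RS30 array than other probes. Its sequence and that of the second Gbp4 probe are shown because they differ in this, with stretches of at least 6 bases in which A and G alternate in capitals, and both lie on the forward strand of chromosome 2 (rn4).
Gbp4, chr2:240508707-240508766: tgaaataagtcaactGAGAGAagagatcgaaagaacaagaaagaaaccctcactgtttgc
Gbp4, second probe, chr2:240501351-240501410: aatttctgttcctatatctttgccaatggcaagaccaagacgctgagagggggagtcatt
The second probe, without such a run, had 5.56 and 3.06 and was within background in both groups. Of all screened genes, 1013 (4.8%) were represented by a probe with such a run, and 40.3% of these were 2-fold or more lower, compared with 2.46% of the other genes. The share was 20.3% with a longest run of 6 bases, as in Gbp4, 55% with 7 bases, and 89.4% with 8 bases or more. The 590 genes with a longest run of 6 bases had a median log2 difference of -0.11. The part of the probe sequence in the Gbp4 value was not tested. Ifih1 was the other gene of the list with such a probe, also with a run of 6 bases. Over the 26 genes whose probes hold no such run, the median log2 difference was -0.11.

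**Figure D3:**
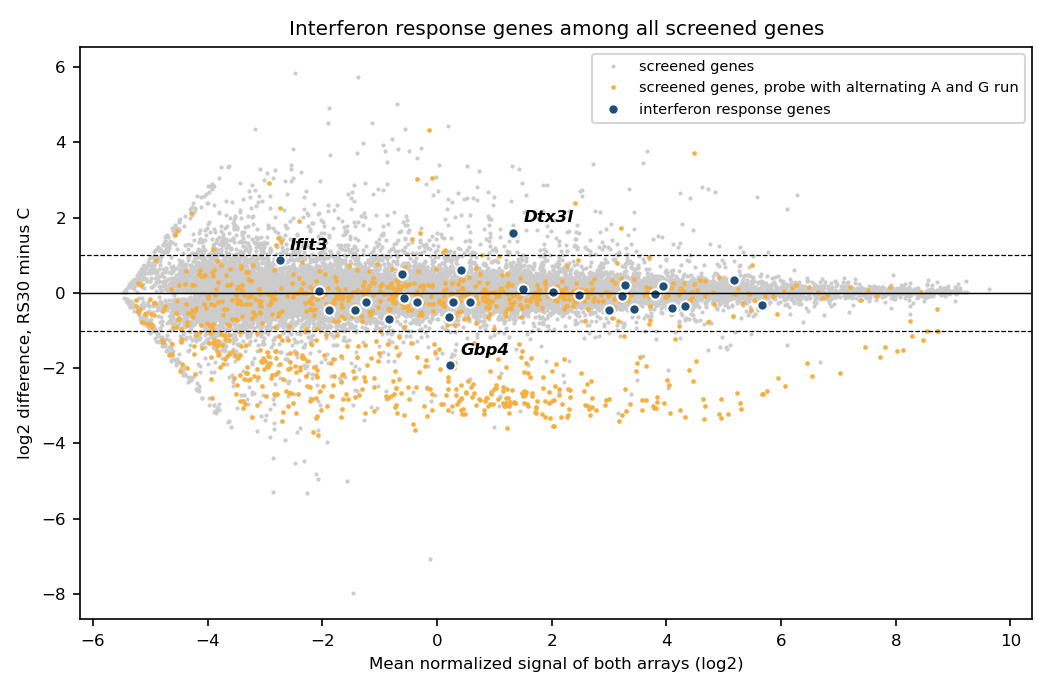
Log2 difference (RS30 minus C, y axis) against the mean normalized signal of both arrays (x axis) for all screened genes with a value (gray), those whose probe holds such an alternating stretch (orange), and the 28 interferon response genes (blue), with dashed lines at 2-fold. Of the orange points 40.3% lie past 2-fold lower, Gbp4 lies at -1.93, and 26 of the 28 blue points lie within 2-fold of 0.

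Dtx3l, an E3 ubiquitin ligase that works as a complex with PARP9, had the largest increase of the list and was measured by a pair of probes that did not move together. Both probes are shown because their values differ, and both lie on the forward strand of chromosome 11 (rn4), with none of the alternating runs.
Dtx3l, chr11:66659060-66659119: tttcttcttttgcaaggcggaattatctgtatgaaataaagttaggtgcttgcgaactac
Dtx3l, second probe, chr11:66653956-66654015: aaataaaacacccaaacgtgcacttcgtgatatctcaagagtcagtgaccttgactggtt
The first went from 271 in C to 768 in RS30 (1.60, spot error 0.20; 3.04-fold higher), and 1.4% of all screened genes were as high or higher. The second had 16.3 and 12.1 (-0.34, spot error 0.35), a difference within its error. The gap between the probes was 1.94 on the log2 scale. Of the 3610 genes with at least 2 probes above background on both arrays, 68 (1.88%) had as large a gap, and 44 (1.22%) had as large a gap with probes on both sides of 0. The array annotation names the same RefSeq transcript for both probes. Whether either probe detects other transcripts is not given in the sources used here, so the increase is that of 1 probe of Dtx3l. The neighbors did not share it. Parp9, the partner of DTX3L, whose gene lies beside Dtx3l on the opposite strand, had 248 and 196 (-0.24), and Parp14, another interferon-induced ADP-ribosyltransferase of the same region, had 2726 and 2875 (0.18).

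For the other 5 genes with a pair of probes above background on both arrays (Eif2ak2, Irf9, Mx2, Oas1a and Trim25), both probes lay below 0. The gap was at most 0.06 for Eif2ak2, Irf9, Mx2 and Oas1a, compared with a median gap of 0.18 over all genes with several probes, and it was 0.47 for Trim25. Probes on both sides of 0 were found in 32.4% of those genes.

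**Figure D4:**
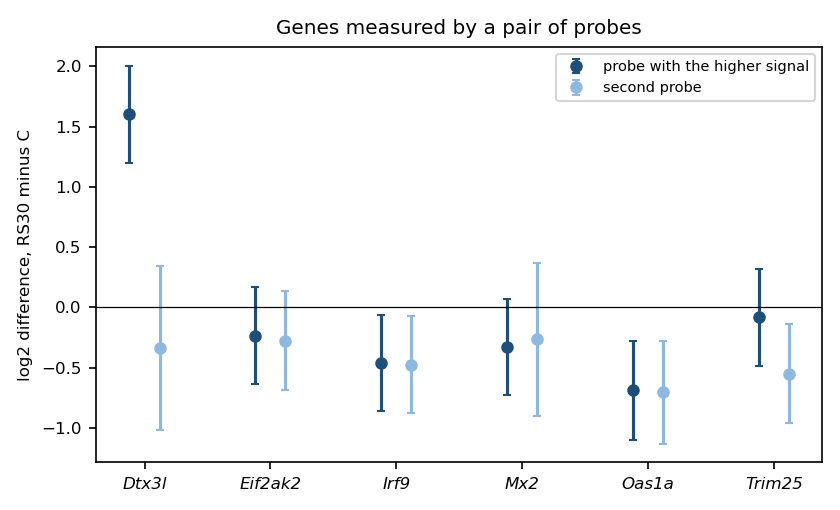
Log2 difference (RS30 minus C, y axis) of the 6 genes measured by 2 probes above background on both arrays, with bars for the 95% interval of the spot error. The probes of Dtx3l lie at 1.60 and -0.34, while the other pairs lie on 1 side of 0.

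The interferon genes themselves gave little signal. Of the 11 ligand names, 7 had a probe and 5 passed the filter. Ifnb1, the first type I interferon to be made, had 12.8 in C and 2.47 in RS30, a signal there within background, and was at least 1.41-fold lower with a spot error of 1.09 on the log2 scale. Ifna4 was level, at 39.9 and 39.1 (0.07), and Ifnk had 39.4 and 20.2 (-0.86, spot error 0.27), while a second Ifnk probe was within background. Ifna1 had 74.8 and 11.4 (-2.62, spot error 0.30) and Ifna2 had 117 and 23.7 (-2.20, spot error 0.24). These 2 probes hold alternating runs of A and G that are longer than that of Gbp4, with 8 bases in Ifna1 and 7 in Ifna2. Screened genes with a longest run of 8 bases or more had a median log2 difference of -2.79, and those with 7 bases had one of -1.35. The probes are shown with the runs in capitals and with their rn4 positions on the reverse strand of chromosome 5.
Ifna1, chr5:108011844-108011903: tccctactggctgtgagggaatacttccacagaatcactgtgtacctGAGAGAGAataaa
Ifna2, chr5:108117636-108117695: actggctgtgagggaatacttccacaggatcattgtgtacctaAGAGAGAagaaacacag
The probe named Ifna1 carries an accession that RefSeq now names Ifna5. The second probes of Ifna1 (2.36 and 1.91) and Ifna2 (2.10 and 7.48) were within background in both groups. The IFN-α genes are near-identical copies, so a probe may bind transcripts of several of them, and the part of the runs in these differences was not tested.

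Upstream of the response genes, most of the 6 receptors and 10 signal transducers differed by less than their spot intervals. Beyond them, Ifngr1, Ifnlr1, Jak2 and Stat3 were higher (background 11% of screened genes) and Ifnar2 was lower (background 10.2%). Ifngr1, the ligand-binding chain of the IFN-γ receptor, had 1885 and 2749 (0.64, spot error 0.20), and Ifnlr1, the specific chain of the IFN-λ receptor, had 176 and 300 (0.87, spot error 0.20). Ifngr2 was at 0.10, Ifnar1 at -0.02, and Il10rb at -0.18. Ifnar2 was at -0.42, again with a probe that holds an alternating run. Besides Ifna1 and Ifna2, the other pathway genes with such a probe were above 0, namely Ptpn2 (0.17), Myd88 (0.41), Slfn2 (0.23) and Ifi44 (0.05). None of the 10 signal transducers differed by 1.5-fold. Jak2 (0.54) and Stat3 (0.50) were the highest of them, and Irf8 (-0.32) and Tyk2 (-0.25) were among those below 0.

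Among the 7 feedback inhibitors of cytokine signaling, 5 were above 0 and 2 below (47.9% of all screened genes were below 0). The SOCS family members were the highest. Socs3, which blocks JAK kinases below the IL-6 family receptors, had 1764 and 11517 (2.81, spot error 0.07; 6.99-fold higher). Socs1, the main brake on IFN-γ signaling, had 20.4 and 55.0 (1.53, spot error 0.27; 2.89-fold higher), and Cish, a target of STAT5, had 45.0 and 82.4 (0.97, spot error 0.22). Pias1, an inhibitor of STAT proteins, had 30.6 and 41.6 (0.55, spot error 0.23). The signals of Socs1, Cish and Pias1 are dim, and the median of the 7 genes is the Pias1 value. The phosphatases did not share these differences, with Ptpn2 at 0.17, Ptpn11 at -0.05 and Ptpn6 at -0.17, the last beyond its spot interval (spot error 0.07). Of the 7 genes, 2 were 2-fold or more higher (background 3.46%) and 0 were 2-fold or more lower (background 4.28%), with a median of 0.55. The SOCS genes respond to many cytokines.

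The wider pathway list held 100 screened genes (118 names, of which 106 had a probe). Their median log2 difference was -0.15, and 63 genes (63%) were below 0 (background 47.9%). By 2-fold, 4 of the 100 were higher and 2 were lower (background 3.46% and 4.28%), and by 1.5-fold, 8 were higher and 9 were lower (background 7.97% and 8.46%). These shares were close to those of all screened genes. The 2 genes lower by 2-fold were Ifna1 and Ifna2, whose probes hold alternating runs of A and G. Of the 61 other interferon targets, 42 were below 0 (background 47.9%), with a median of -0.20. By 1.5-fold, 3 of the 61 were higher and 6 were lower (background 7.97% and 8.46%). The higher ones past 1.5-fold were Gch1 (1.80), the first enzyme of tetrahydrobiopterin synthesis, Ifitm3 (0.59), which blocks viral entry, and Ido1, a tryptophan-degrading enzyme. Ido1 was dim, at 9.78 in C and 20.9 in RS30. It was above background on the RS30 array only, and was at least 2.29-fold higher (spot error 0.39). The 6 lower ones were Il15 (-0.90), a cytokine that sustains NK cells, Samhd1 (-0.81), a dNTP hydrolase, Ciita (-0.81), the regulator of MHC class II genes, and Parp12 (-0.68), Rtp4 (-0.62) and Cmpk2 (-0.60). The 11 sensors and adaptors had a median of -0.15 and none differed by 1.5-fold. The median of the wider list thus lay on the same side of 0 as that of the 28 genes, with most members within 1.5-fold. Its sets did not all share this side. The medians of the receptors (0.04), signal transducers (0.02) and feedback inhibitors (0.55) were above 0. Those of the ligands (-0.86), sensors and adaptors (-0.15) and other targets (-0.20) were below 0, and the other targets were 61 of the 100 genes.

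**Figure D5:**
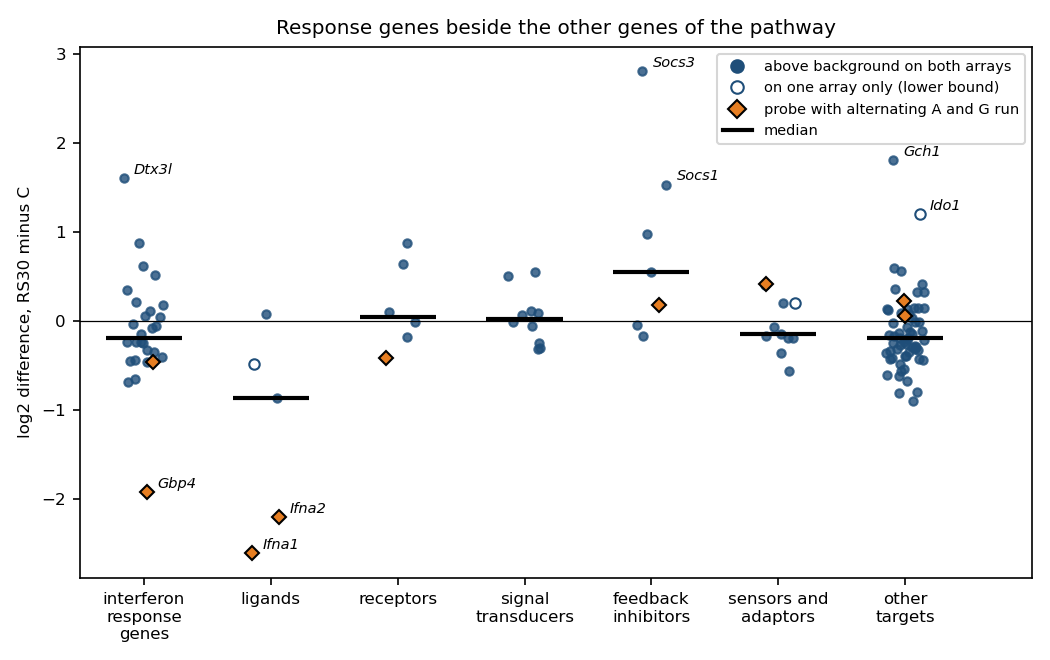
Log2 difference (RS30 minus C, y axis) of the 28 interferon response genes and of the 6 sets of other pathway genes (x axis), with the median as a black line; filled circles are genes above background on both arrays, open circles lower bounds, and orange diamonds genes whose probe holds an alternating run of A and G. The feedback inhibitors have a median of 0.55, while the response genes (-0.19) and the other targets (-0.20) lie below 0.

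The labeled tissue was checked against cell type markers. Markers of B cells, T cells, macrophages, endothelium and lymph node stroma were well above background on both arrays, with Glycam1, Ccl21, Cd79b and Cd3e among them, and none of the salivary gland markers (0 of the 5 with a probe) was. Between the arrays, the 5 screened markers of plasmacytoid dendritic cells had a median log2 difference of 0.04 and the 8 of macrophages one of 0.01. The medians were -0.15 over 7 T cell markers and -0.47 over 6 NK cell markers, of which 3 were 1.5-fold or more lower (Eomes -1.73, Gzma -0.72, Nkg7 -0.68; background 8.46%) and 1 was higher (Klrb1b 0.74, within its spot interval; background 7.97%). The summed normalized signal of the NK cell markers (linear, relative to the 75th percentile) was 15.5 in C and 11 in RS30, and Ncr1 was within background. All screened markers of erythrocytes (6), fat cells (6) and neutrophils (4) were above 0, with medians of 2.61, 2.18 and 2.25 and summed normalized signals of 54.1 and 326, 33.8 and 89.1, and 0.446 and 4.45. The neutrophil values rest on S100a8 (3.99) and S100a9 (3.78), since Csf3r (0.11) and Cxcr2 (0.73, a bound) lay within their spot intervals, as did Lipe (0.57) of the fat cell markers. Slc4a1, Plin1, Mpo, Elane and Ngp of these lists were not well above background. The part of the cell mixture in the values of the interferon response genes was not tested, and fewer cells of a type and less RNA per cell cannot be told apart in whole nodes.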

How the data were processed

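The authors labeled cervical lymph node RNA with Cy3, hybridized it to the Agilent SurePrint G3 Rat GE 8X60K ver. 2.0 array, and deposited the spot intensity values of Feature Extraction 11.5.1.1, after background subtraction within the array and before any scaling between arrays. A table of log2 values per probe, shifted to the 75th percentile, was deposited too, and for 100% of 45598 probes it differed by at most 0.1 from the log2 values used here. That table served as an alternative. Per the labels, 1 array belongs to each group.

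From the deposited intensity values, control spots and outlier spots were left out, replicate spots were averaged per probe as log2 values, and each array was shifted by its 75th percentile over probes (intensities of 189 for C and 176 for RS30). A probe was well above background when more than 50% of its spots carried that flag, as for 54.7% and 54.9% of probes, and a gene was its probe with the highest mean. For a gene dim on 1 array, the bound was taken against the higher of its own signal there and the lowest signal well above background (9.45 and 8.52). The 2-fold threshold follows the study. The number of arrays limits the precision, and the arrays shared 1 slide and 1 scan.

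The genes of the list, the wider pathway list, the marker lists, the motifs and the 13 alternatives were chosen with earlier results of these data known. Named were all genes of the list, other pathway genes past 1.5-fold, and the ligands, receptors and transducers; further genes are named where a result turns on them, and 1 gene of the wider pathway list is not reported here. RefSeq accessions matched 27 of 28 screened genes. The 95% interval of a spot error assumes a normal error on the log2 scale. Steps were tested on simulated data. R 4.3.3 with limma 3.58.1 (normexp, offset 50), Python 3.11.15, numpy 2.4.6, pandas 2.3.3 and matplotlib 3.10.9 were used.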

Additional observations from a re-analysis of the deposited data

How the results depend on the processing

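With 1 array per group, no replicate could be left out. No paired analysis was possible because C and RS30 are each represented by a single array, which leaves fewer than 2 pairs. The median of the 28 genes stayed below 0 under every alternative that was run, from -0.29 without normalization to -0.11 with the alternating probes left out, and the all-gene median lay between -0.08 and 0.04 under the scalings. Gbp5 and Ifit2 turned from above to below 0 without normalization. Of 334 values of single genes under the alternatives, 327 moved by no more than their spot error, 7 moved further, and 0 of those past 1.5-fold changed sign. Many of these values could not move, because all 28 genes were detected on both arrays. The ratio in place of the bound, the filter on both arrays and no filter repeat the main value of each gene (28 values each). Leaving out the alternating probes does so too (26 values). The 327 is thus no measure of robustness. With normexp, which shrinks dim differences by construction, 1 gene was 1.5-fold or more higher and 1 was lower. Ifit3 was then at 0.29, Oas1a at -0.44, Ifih1 and Dhx58 at -0.18 each, and Gbp4 at -1.53. With all probes of a gene averaged, 0 genes were 2-fold or more higher, since Dtx3l then stood at 0.63. With the alternating probes left out, 0 were 2-fold or more lower, since Gbp4 then had no probe above background. Without a filter on background, 2 were 2-fold or more lower, the second being Cxcl11. Differences of dim genes are limited by the signal over background.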
